A study of Homo sapiens with 8 samples.

Results

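The genes described here copy DNA and supply its building blocks: the loading and firing of the replicative helicase, the polymerases and their clamp, the nucleotide enzymes, fork protection and the chromatin laid down behind the fork. They are 49 genes listed by name in 8 groups by role, by a rule that uses no measured value. The list was nevertheless chosen with earlier results of these data known. A gene entered where, in at least 1 of the 4 groups of samples, both arrays measured a probe of that name well above background, and the brightest such probe was read. This gave 48 of the 49 genes, out of 16955 genes measured in the same way, and POLA2, a subunit of the polymerase alpha complex, was not analysed here. Of the 48, 46 were well above background on all 8 arrays.

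OVSAHO and KURAMOCHI are established cell lines of serous ovarian carcinoma, and their RNA was hybridized to one-color arrays, 2 for each line with simvastatin and 2 for each line with L-778123. Simvastatin blocks HMG-CoA reductase, the enzyme that feeds the mevalonate pathway, whereas L-778123 inhibits the enzymes that attach farnesyl and geranylgeranyl groups to proteins further along that pathway. The comparison asks how a statin differs from an inhibitor of these enzymes, and whether prenylation was lost was not measured on these arrays. No untreated or vehicle arrays were analysed here, so a lower level with simvastatin cannot be told apart from a higher level with L-778123, and the concentrations and times of these cultures are not given in the sources used here. Nothing says that the 2 arrays of a group came from separate cultures, so the p-values measure only the spread between these arrays, which may be technical.

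In proliferating cells, origins of replication are licensed in G1 phase, when the origin recognition complex, CDC6 and CDT1 load the MCM2-7 ring on DNA. On entry into S phase, CDC45 and the GINS complex join that ring to form the active helicase, and polymerases, clamp and nucleotide supply follow. Transcription of many of these genes is known to depend on E2F factors, which bind words such as TTTCCCGC near the start site.

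The promoters of 42 of the 49 genes were found in a RefSeq table of 300 bases a gene, 250 before and 50 after the start, on build GRCh38.p14, and MCM4, MCM5, GINS4, POLD3, DSCC1, RPA2 and RPA3 had no entry. On either strand, 21 of the 42 held at least 1 of the E2F words TTTCCCGC, TTTGGCGC, TTTCGCGC and TTTGCCGC, against 908 of 27305 promoters in the whole table (3.3%). In 12 of the 42 (28.6%) such a word began within 20 bases of the start, against 145 of the 27305 (0.53%). These 12 are printed as 30 bases each, on the strand of the gene, because they show an E2F word close to the start in licensing factors, GINS subunits, polymerase epsilon and chromatin factors. Capitals mark the E2F words, which overlap each other in MCM2.
MCM2, chr3:127598402-127598431, plus strand: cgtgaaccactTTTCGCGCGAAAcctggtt
MCM3, chr6:52284728-52284757, minus strand: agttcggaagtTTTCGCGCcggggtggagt
MCM7, chr7:100101388-100101417, minus strand: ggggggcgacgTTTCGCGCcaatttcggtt
CDC6, chr17:40287875-40287904, plus strand: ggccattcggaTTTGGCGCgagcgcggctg
GINS1, chr20:25407667-25407696, plus strand: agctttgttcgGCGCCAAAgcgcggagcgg
GINS3, chr16:58392455-58392484, plus strand: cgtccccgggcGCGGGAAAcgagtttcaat
POLE, chr12:132687342-132687371, minus strand: tgggtgggagcGCGCCAAAtttctcccctg
POLE2, chr14:49688201-49688230, minus strand: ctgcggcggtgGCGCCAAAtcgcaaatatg
CLSPN, chr1:35769965-35769994, minus strand: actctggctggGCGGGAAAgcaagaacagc
UHRF1, chr19:4909476-4909505, plus strand: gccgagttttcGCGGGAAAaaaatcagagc
HELLS, chr10:94545769-94545798, plus strand: gatgacaggatTTTCCCGCgaaggagaagc
DTL, chr1:212035729-212035758, plus strand: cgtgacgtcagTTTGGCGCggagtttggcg

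The word began from 18 bases before the start, in POLE, to 7 bases after it, in CDC6. A match describes the letters in the window and is no evidence of binding.

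The promoters of 3 further genes are shown whole: RRM2, which had the largest fall of the 48 genes in KURAMOCHI, TYMS, another nucleotide enzyme, and RPA1, which had the smallest change in OVSAHO. Capitals mark E2F words and CCAAT, each on either strand.
RRM2, chr2:10122489-10122788, plus strand: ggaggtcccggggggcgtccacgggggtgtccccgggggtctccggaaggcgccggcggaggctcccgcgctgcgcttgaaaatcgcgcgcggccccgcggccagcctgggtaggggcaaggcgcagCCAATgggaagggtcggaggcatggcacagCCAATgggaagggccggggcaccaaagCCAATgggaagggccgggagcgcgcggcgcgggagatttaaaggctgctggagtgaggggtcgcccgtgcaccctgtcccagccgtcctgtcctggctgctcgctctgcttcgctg
TYMS, chr18:657403-657702, plus strand: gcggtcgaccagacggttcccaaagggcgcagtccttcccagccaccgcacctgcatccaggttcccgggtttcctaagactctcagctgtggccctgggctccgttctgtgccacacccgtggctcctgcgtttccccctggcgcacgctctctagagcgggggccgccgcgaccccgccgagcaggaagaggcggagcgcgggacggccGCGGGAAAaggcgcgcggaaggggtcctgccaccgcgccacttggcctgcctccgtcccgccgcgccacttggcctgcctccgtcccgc
RPA1, chr17:1829755-1830054, plus strand: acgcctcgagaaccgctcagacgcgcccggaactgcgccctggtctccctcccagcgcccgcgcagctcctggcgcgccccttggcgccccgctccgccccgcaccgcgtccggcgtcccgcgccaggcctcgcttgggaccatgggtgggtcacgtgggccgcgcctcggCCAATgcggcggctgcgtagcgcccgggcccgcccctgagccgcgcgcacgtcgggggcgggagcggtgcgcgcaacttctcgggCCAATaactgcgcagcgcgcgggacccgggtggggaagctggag

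RRM2 held no E2F word and 3 CCAAT words in this window, beginning 123, 93 and 66 bases before the start. TYMS held 1 E2F word and no CCAAT, and RPA1 held 2 CCAAT words and no E2F word. On either strand, CCAAT was present in 26 of the 42 promoters (61.9%), against 35.7% of the table. The word TTTGAA or its variant TTCGAA, known from promoters of later cell cycle genes, was present in 2 of the 42 (4.8%), against 16.6% of the table. The median log2 fold change in OVSAHO was -1.57 (range -2.93 to -0.59) over the 20 measured genes with an E2F word and -1.14 (-2.96 to -0.52) over the 21 without one. In KURAMOCHI these medians were -1.005 and -0.865, and the difference was not tested in either line.

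Every one of the 48 genes had a lower level with simvastatin than with L-778123 in both lines. In OVSAHO, 35 were called lower, at an adjusted p under 0.05 from limma and a change of at least 2-fold, and 0 were called higher. Of all 16955 genes, 5.89% were called lower and 5.69% higher in that comparison. In KURAMOCHI, 20 were called lower and 0 higher, with 2.95% of all genes called lower and 2.44% higher. By the adjusted p alone, all 48 passed in OVSAHO (27.5% of all genes, lower) and 44 in KURAMOCHI (18.4% of all genes, lower). The 4 that did not pass in KURAMOCHI were POLD1, POLD2, RPA2 and TIPIN.

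The size of the fall differed between the lines as well as between the genes. The median log2 fold change over the 48 genes was -1.28 in OVSAHO, where the level with simvastatin was 41.2% of that with L-778123, and -0.91 in KURAMOCHI, where it was 53.2%. The same median over all genes tested was 0.01 in each line. Levels are given throughout as log2 intensity minus the array's own 75th percentile. On that scale the median over the 48 genes was 2.83 and 2.78 on the OVSAHO arrays with L-778123 and 1.58 and 1.64 with simvastatin. In KURAMOCHI it was 2.82 and 2.80 with L-778123 and 2.02 and 2.01 with simvastatin. By this median the arrays with L-778123 lay close together in both lines, and the simvastatin arrays of OVSAHO lay lowest. Single genes could differ between the lines with L-778123. The mean level of PRIM1 with that drug was 3.10 in OVSAHO and 0.95 in KURAMOCHI, and that of RFC3 was -0.05 and 1.80. In these bulk samples, fewer cells in S phase and less of each RNA per cell cannot be told apart.

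**Figure D1:**
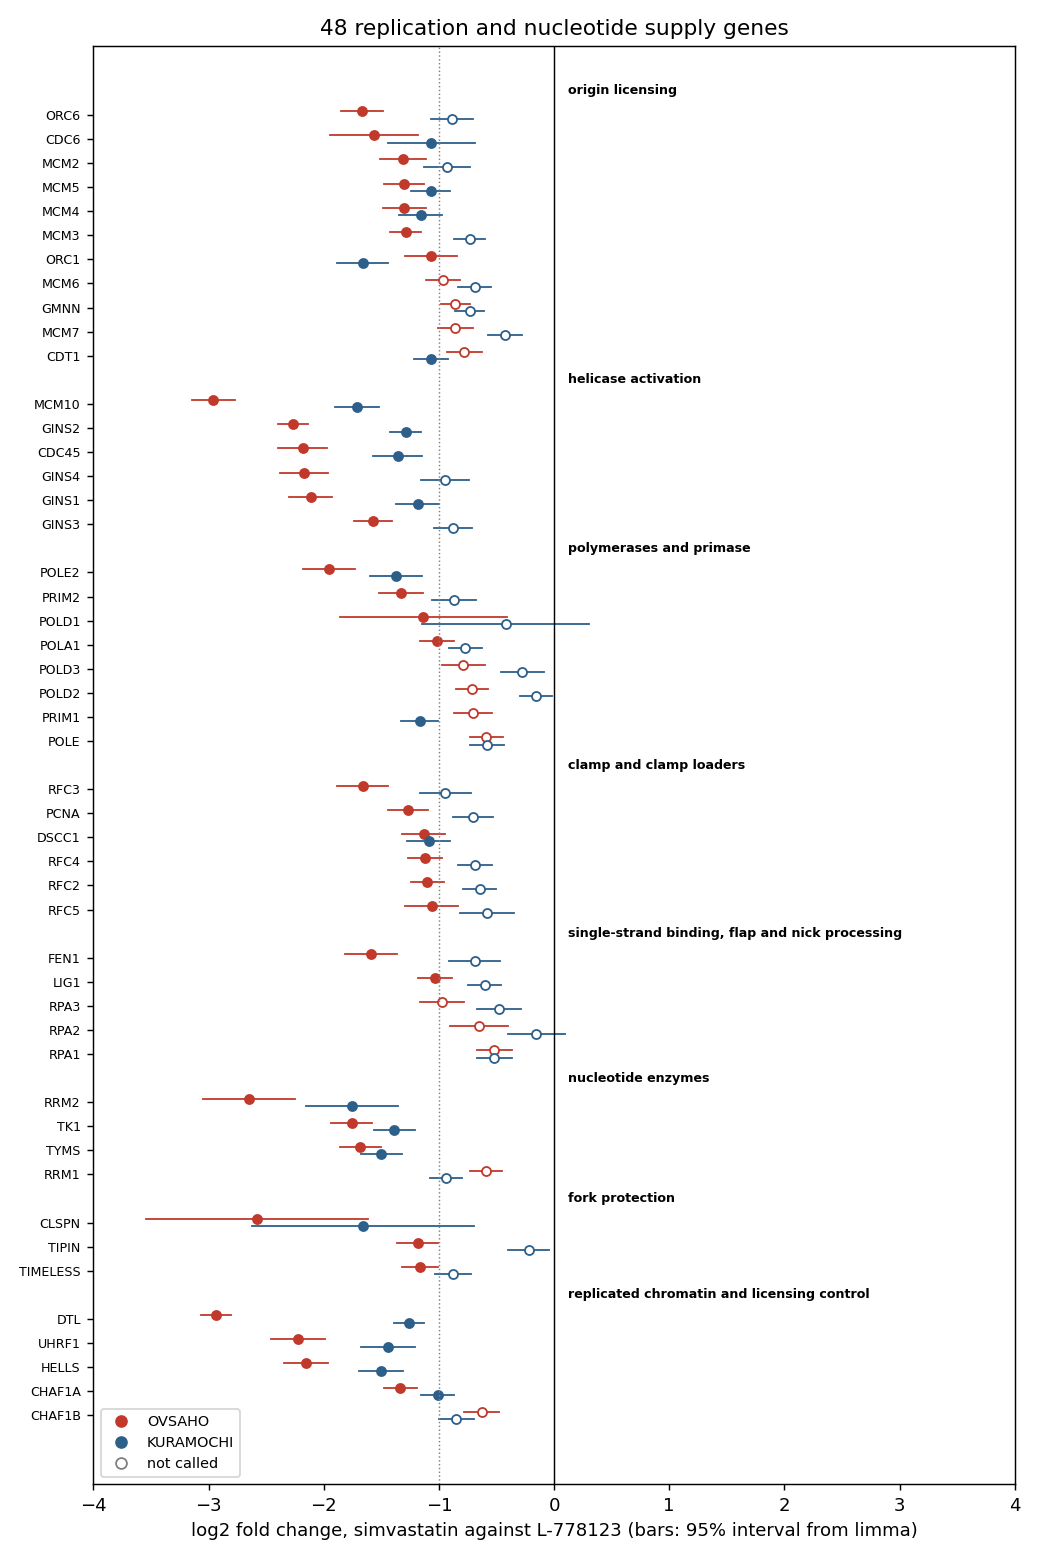
Log2 fold change of 48 genes, simvastatin against L-778123, in OVSAHO (red) and KURAMOCHI (blue), grouped by role on the vertical axis; points are limma estimates from 2 arrays a group, bars are 95% intervals, filled points were called and the dotted line marks 2-fold. All points lie below 0, from -2.96 for MCM10 in OVSAHO to -0.15 for RPA2 and POLD2 in KURAMOCHI.

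Ordered by the median in OVSAHO, the roles ran from helicase activation (-2.18 on the log2 scale) and replicated chromatin (-2.15) through nucleotide enzymes (-1.72), licensing (-1.29), fork protection (-1.18), the clamp and its loaders (-1.13) and single-strand binding and flap processing (-0.97) to the polymerases and primase (-0.90). In KURAMOCHI the nucleotide enzymes led (-1.44), followed by replicated chromatin (-1.26), helicase activation (-1.24), licensing (-0.93), fork protection (-0.88), the clamp (-0.70), the polymerases (-0.68) and single-strand binding (-0.52). These medians rest on 3 to 11 genes each and are a description.

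Of the 11 origin licensing genes, 7 were called lower in OVSAHO and 5 in KURAMOCHI. The MCM2-7 proteins form the hexameric ring of the helicase, and MCM2, MCM3, MCM4 and MCM5 fell by 1.29 to 1.31 on the log2 scale in OVSAHO, close to one another. MCM6 (log2 fold change -0.96) and MCM7 (-0.86) passed the adjusted p in OVSAHO but not the 2-fold threshold. MCM4 stood at 2.44 and 2.45 with L-778123 and at 1.20 and 1.09 with simvastatin in OVSAHO, and at 3.25 and 3.32 against 2.20 and 2.05 in KURAMOCHI. Its levels with the 2 drugs did not overlap in either line, and its fall was of like size in both, -1.30 ± 0.08 (SE, n = 2 arrays a group) and -1.16 ± 0.08. MCM7 was 7.62 on both OVSAHO arrays with L-778123 and 6.76 on both with simvastatin, and in KURAMOCHI it was 7.23 and 7.12 against 6.73 and 6.76. Its log2 fold change in KURAMOCHI, -0.43, was the smallest of the ring.

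The origin recognition complex marks origins, CDC6 and CDT1 bring the ring to it, and geminin (GMNN) holds CDT1 in check after S phase begins. ORC6 fell most of this role in OVSAHO, from 2.31 and 2.15 with L-778123 to 0.60 and 0.53 with simvastatin, a log2 fold change of -1.67. ORC1 fell most in KURAMOCHI, from -0.90 and -1.12 to -2.71 and -2.63. Its log2 fold change was -1.66 ± 0.09 there and -1.07 ± 0.09 in OVSAHO, where it fell from -0.16 and -0.07 to -1.15 and -1.21. The difference between the lines, 0.60 (95% interval 0.28 to 0.91), passed the adjusted p (0.0251, limma) but not 2-fold, and it ran against most of the 48 genes. After normexp the ORC1 difference was 0.13 (adjusted p = 0.353, limma). CDT1 was called in KURAMOCHI (-1.07) and not in OVSAHO (-0.78), but the difference between the lines, 0.29, did not pass (adjusted p = 0.058, limma). CDC6 was dim: its levels were -3.10 and -3.08 with L-778123 and -4.84 and -4.47 with simvastatin in OVSAHO, where the first simvastatin array was not well above background. GMNN fell by 0.86 in OVSAHO and 0.73 in KURAMOCHI, below the 2-fold threshold in both.

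The 6 helicase activation genes were all called lower in OVSAHO, and 4 of them in KURAMOCHI. MCM10, which helps the loaded helicase to start unwinding, had the largest fall of the 48 genes in OVSAHO. It stood at 0.56 on both OVSAHO arrays with L-778123 and at -2.31 and -2.49 with simvastatin, so that 12.9% of the level was left. In KURAMOCHI it stood at 0.46 and 0.49 against -1.27 and -1.19, with 30.5% left. The L-778123 arrays of the lines thus lay close together, and the simvastatin arrays of OVSAHO lay over 1 log2 unit below those of KURAMOCHI. CDC45, the partner of GINS in the active helicase, was 2.98 and 3.14 against 0.92 and 0.84 in OVSAHO and 3.54 and 3.37 against 2.09 and 2.10 in KURAMOCHI.

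The GINS complex has 4 subunits, and all were called lower in OVSAHO, with log2 fold changes of -2.11 for GINS1, -2.27 for GINS2, -1.57 for GINS3 and -2.17 for GINS4. In KURAMOCHI the changes were -1.19, -1.29, -0.88 and -0.95 in the same order, and GINS1 and GINS2 were called. GINS2 went from 2.41 and 2.35 to 0.12 and 0.10 in OVSAHO and from 2.32 and 2.31 to 1.01 and 1.04 in KURAMOCHI. GINS4 went from 3.50 and 3.34 to 1.27 and 1.22 in OVSAHO and from 2.77 and 2.78 to 1.91 and 1.75 in KURAMOCHI. GINS3 went from 2.67 and 2.76 to 1.09 and 1.20 in OVSAHO and from 2.56 and 2.63 to 1.72 and 1.71 in KURAMOCHI. For every subunit the arrays of the 2 drugs were apart by far more than replicates were.

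Among the polymerases and primase, 4 of 8 were called lower in OVSAHO and 2 in KURAMOCHI. POLE2, the second subunit of the leading strand polymerase epsilon, fell from 0.56 and 0.34 to -1.43 and -1.57 in OVSAHO, a log2 fold change of -1.95 ± 0.09, and from 0.02 and -0.01 to -1.40 and -1.34 in KURAMOCHI. POLE, the catalytic subunit of the same enzyme, changed by -0.59 ± 0.06 in OVSAHO and by -0.58 ± 0.06 in KURAMOCHI. It went from -0.26 and -0.18 to -0.84 and -0.78 in OVSAHO and from -0.55 and -0.56 to -1.11 and -1.16 in KURAMOCHI. The subunits of 1 enzyme thus had unlike changes, with 95% intervals in OVSAHO of -2.18 to -1.73 for POLE2 and -0.73 to -0.44 for POLE.

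Primase makes the RNA primers, and its 2 subunits differed in which line changed more. PRIM1, the catalytic subunit, went from 3.15 and 3.05 to 2.41 and 2.38 in OVSAHO and from 0.99 and 0.91 to -0.18 and -0.25 in KURAMOCHI. It was called in KURAMOCHI (-1.17) and not in OVSAHO (-0.71), and the difference of 0.46 passed the adjusted p (0.0207, limma) without reaching 2-fold. PRIM2, the other subunit, was called in OVSAHO (-1.33) and not in KURAMOCHI (-0.87), although a dimmer PRIM2 probe was called in both (-2.17 and -1.59). POLA1, the catalytic subunit of polymerase alpha, fell by 1.02 in OVSAHO and by 0.77 in KURAMOCHI.

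Polymerase delta copies the lagging strand. POLD1, its catalytic subunit, went from 3.14 and 3.24 to 2.01 and 2.10 in OVSAHO. In KURAMOCHI it read 3.92 and 2.95 with L-778123 and 3.00 and 3.04 with simvastatin, so the second L-778123 array lay below both simvastatin arrays. Without the first KURAMOCHI L-778123 array its change in KURAMOCHI was 0.06, and without the second it was -0.90. Its call in OVSAHO (-1.14, adjusted p = 0.0227, limma) was lost when any of the 4 OVSAHO arrays was left out. The fit shares a spread over all groups, so that p-value also carries the KURAMOCHI L-778123 pair (SD 0.684). The POLD1 pairs in OVSAHO had SDs of 0.06 with simvastatin and 0.066 with L-778123. POLD2 and POLD3, its accessory subunits, fell in OVSAHO by 0.71 and 0.79, and in KURAMOCHI they changed by -0.15 (adjusted p = 0.0887, limma) and -0.28.

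PCNA, the sliding clamp, and its loaders RFC2, RFC3, RFC4 and RFC5 were called lower in OVSAHO, and so was DSCC1, a subunit of the alternative loader. DSCC1 alone of these 6 was called in KURAMOCHI. PCNA went from 4.54 and 4.44 to 3.22 and 3.23 in OVSAHO and from 4.21 and 4.08 to 3.43 and 3.45 in KURAMOCHI, log2 fold changes of -1.27 and -0.70. RFC3 had the largest fall of this role in OVSAHO, from 0.07 and -0.18 to -1.70 and -1.73, and its change in KURAMOCHI was from 1.79 and 1.80 to 0.86 and 0.84. DSCC1 went from 2.54 and 2.44 to 1.43 and 1.29 in OVSAHO and from 2.17 and 2.19 to 1.14 and 1.05 in KURAMOCHI. Its fall was alike in the lines, -1.13 and -1.09, with a difference of -0.04 (95% interval -0.31 to 0.22).

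The 3 subunits of RPA, which coats single-stranded DNA, were called in neither line. RPA1 had the smallest change in OVSAHO of the 48 genes and the same value in KURAMOCHI, -0.52 ± 0.06 in each. It went from 4.42 and 4.38 to 3.90 and 3.86 in OVSAHO and from 5.31 and 5.21 to 4.76 and 4.71 in KURAMOCHI. RPA2 changed by -0.65 in OVSAHO and by -0.15 in KURAMOCHI (adjusted p = 0.3, limma), and RPA3 by -0.97 and -0.48. FEN1, which trims the flaps of Okazaki fragments, fell from 1.84 and 1.83 to 0.13 and 0.35 in OVSAHO and from 1.96 and 1.95 to 1.33 and 1.20 in KURAMOCHI. LIG1, the ligase that seals these fragments, fell by 1.04 and 0.60, and its call in OVSAHO was close to the 2-fold threshold.

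Of the 4 nucleotide enzymes, all were called lower in OVSAHO except RRM1, and likewise in KURAMOCHI. RRM2, the regulatory subunit of ribonucleotide reductase, went from 0.59 and 0.35 to -2.22 and -2.13 in OVSAHO, where 16.0% was left, and from 0.40 and 0.27 to -1.20 and -1.64 in KURAMOCHI, where 29.6% was left. RRM1, the catalytic subunit of the same enzyme, went from 4.66 and 4.63 to 4.03 and 4.08 in OVSAHO and from 4.48 and 4.40 to 3.50 on both arrays in KURAMOCHI. RRM1 was called in neither line, and its fall was larger in KURAMOCHI (-0.94 ± 0.06) than in OVSAHO (-0.59 ± 0.06), a difference of 0.35 (adjusted p = 0.0309, limma). The intervals of the subunits did not overlap in OVSAHO: -3.05 to -2.25 for RRM2 and -0.73 to -0.45 for RRM1.

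TYMS makes thymidylate from deoxyuridylate, and TK1 recovers it from thymidine. TYMS went from 5.25 and 5.18 to 3.56 and 3.51 in OVSAHO and from 5.14 and 5.12 to 3.71 and 3.56 in KURAMOCHI, so that 31.2% and 35.4% were left. TK1 went from 7.87 and 8.02 to 6.16 and 6.22 in OVSAHO and from 7.34 and 7.27 to 5.91 and 5.93 in KURAMOCHI, with 29.6% and 38.2% left. Both were called in both lines, and on every array with simvastatin they lay more than 1 log2 unit below every array of the line with L-778123.

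**Figure D2:**
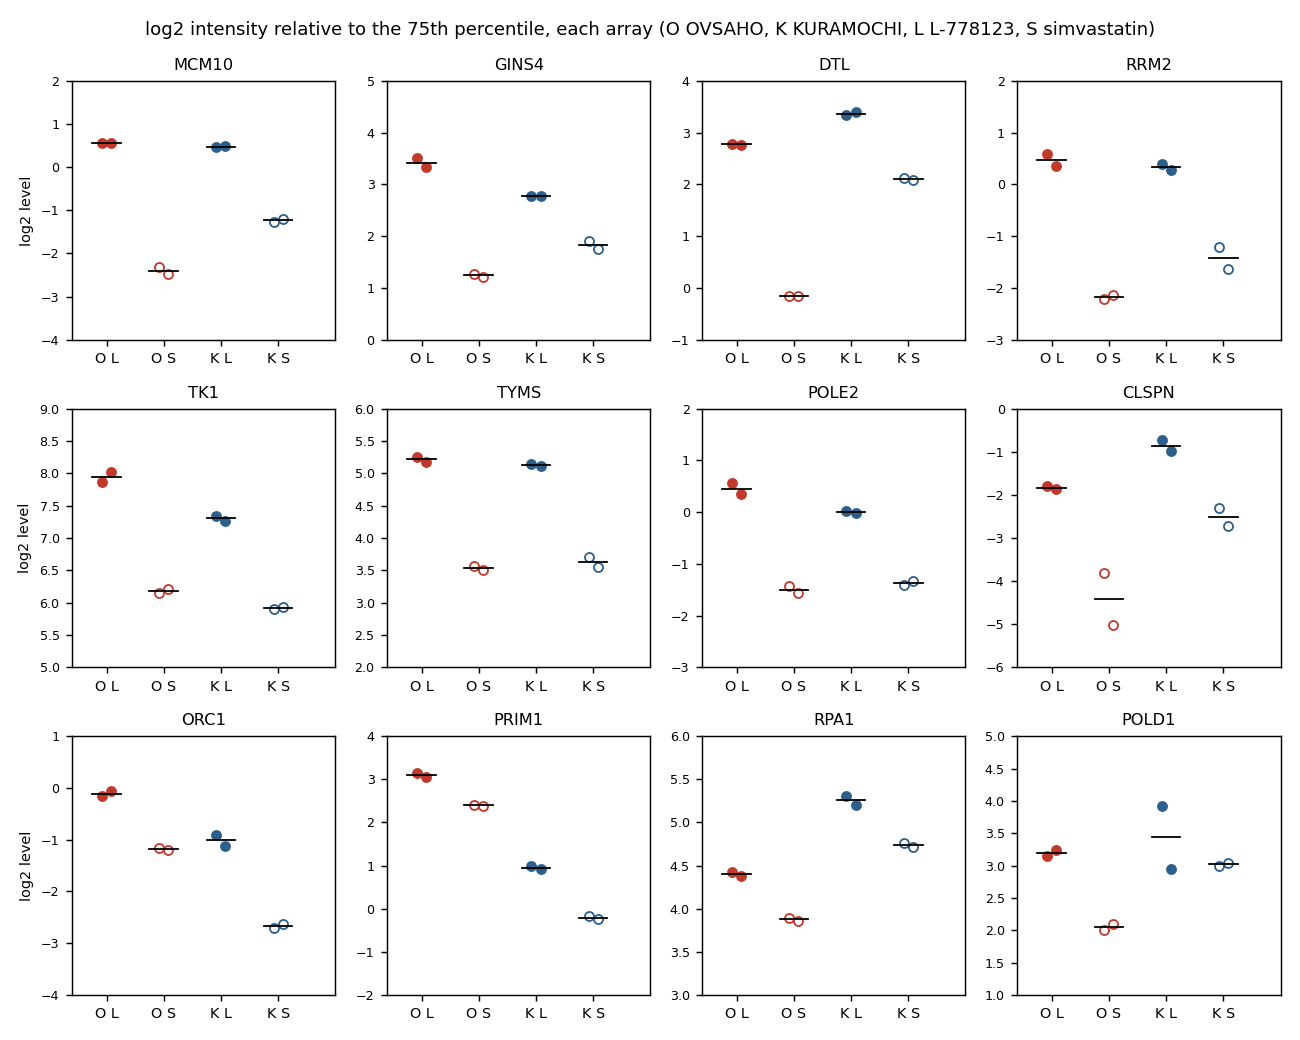
Level of 12 genes on each of the 8 arrays, as log2 intensity minus the array's 75th percentile (vertical axes differ between panels and do not start at 0); filled points are L-778123, open points simvastatin, red OVSAHO, blue KURAMOCHI and bars the mean of 2 arrays. DTL and MCM10 are lowest on the OVSAHO simvastatin arrays, ORC1 and PRIM1 on the KURAMOCHI simvastatin arrays, and POLD1 overlaps between the drugs in KURAMOCHI.

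Claspin (CLSPN), TIPIN and TIMELESS hold the fork together and carry the checkpoint signal. CLSPN had a large change with a wide error: it was -1.80 and -1.87 with L-778123 and -3.81 and -5.02 with simvastatin in OVSAHO, where the second simvastatin array was not well above background. In KURAMOCHI it was -0.72 and -0.99 against -2.30 and -2.72. The log2 fold changes were -2.58 ± 0.39 and -1.66 ± 0.39, and after normexp background correction they were -0.79 and -0.98, under 2-fold. The call in KURAMOCHI was lost when any of the 4 KURAMOCHI arrays was left out. That call rests on a spread shared by all groups, to which the OVSAHO simvastatin pair (SD 0.852) adds most. The KURAMOCHI pairs of CLSPN had SDs of 0.296 with simvastatin and 0.19 with L-778123. TIPIN went from 2.78 and 2.62 to 1.51 and 1.53 in OVSAHO and from 2.51 on both arrays to 2.25 and 2.33 in KURAMOCHI. Its change in KURAMOCHI, -0.22, did not pass (adjusted p = 0.0673, limma), and the difference between the lines, -0.97, passed the adjusted p (0.00282, limma) just short of 2-fold. TIMELESS, the partner of TIPIN, fell by 1.16 in OVSAHO and by 0.88 in KURAMOCHI, a difference that did not pass (-0.29, adjusted p = 0.0685, limma).

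Of the genes of replicated chromatin and licensing control, 4 of 5 were called in each line. DTL, the substrate receptor of the ubiquitin ligase that removes CDT1 during S phase, had nearly the largest fall in OVSAHO and the largest difference between lines. It was 2.79 and 2.77 with L-778123 and -0.16 on both simvastatin arrays in OVSAHO, and 3.35 and 3.39 against 2.13 and 2.10 in KURAMOCHI. UHRF1, which brings DNA methylation to new strands, went from 0.24 and 0.43 to -1.98 and -1.79 in OVSAHO and from 1.42 and 1.37 to -0.04 and -0.05 in KURAMOCHI. A second UHRF1 probe fell by 1.43 in OVSAHO and 1.33 in KURAMOCHI. The difference between lines was -0.79 for the first probe and -0.10 for the second (adjusted p = 0.0125 and 0.756, limma), so it depended on the probe.

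HELLS, a chromatin remodeler, fell by 2.15 in OVSAHO, with 35.3% left in KURAMOCHI. It went from 1.52 and 1.54 to -0.53 and -0.72 in OVSAHO and from 0.91 and 0.98 to -0.56 and -0.55 in KURAMOCHI. CHAF1A and CHAF1B are subunits of the chaperone that places histones behind the fork. CHAF1A was called in both lines (-1.34 and -1.01), a second probe in OVSAHO alone (-1.03 and -0.75), and CHAF1B in neither (-0.63 and -0.85).

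The difference between the lines was tested as the drug contrast in OVSAHO minus that in KURAMOCHI. Of the 48 genes, 42 had the larger fall in OVSAHO and 6 in KURAMOCHI. Called at the adjusted p and 2-fold were 3 genes, all lower in OVSAHO, and 0 were called the other way, with 3.30% of all genes called lower and 4.29% higher. They were DTL, at -1.68 (95% interval -1.86 to -1.49, adjusted p = 0.0003), MCM10, at -1.25 (-1.52 to -0.98, adjusted p = 0.00161), and GINS4, at -1.23 (-1.52 to -0.93, adjusted p = 0.00223), all from limma. After normexp background correction MCM10 no longer reached 2-fold (-0.78). By the adjusted p alone, 27 genes had the larger fall in OVSAHO (14.0% of all genes) and 3 in KURAMOCHI (13.5% of all genes): ORC1, PRIM1 and RRM1. The median difference was -0.49 over the 48 genes and -0.01 over all genes.

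By role, the median difference was largest for helicase activation, -0.95, where all 6 genes passed the adjusted p. For replicated chromatin it was -0.65 and 4 of 5 passed, and for single-strand binding and flap processing -0.49 and 3 of 5. Of the 3 genes of fork protection TIPIN passed (-0.97), while TIMELESS (-0.29) and CLSPN did not, and the value of CLSPN was -0.92 as reported and 0.18 after normexp. For licensing the median was -0.27, and 4 of 11 genes passed, ORC1 in the opposite direction. For the clamp and its loaders it was -0.47 and 4 of 6 passed, and for the polymerases and primase -0.49 and 5 of 8, PRIM1 in the opposite direction. For the nucleotide enzymes it was -0.28, and RRM2 and TK1 passed with the larger fall in OVSAHO and RRM1 with the larger fall in KURAMOCHI. For TYMS the interval of the difference was -0.43 to 0.07.

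**Figure D3:**
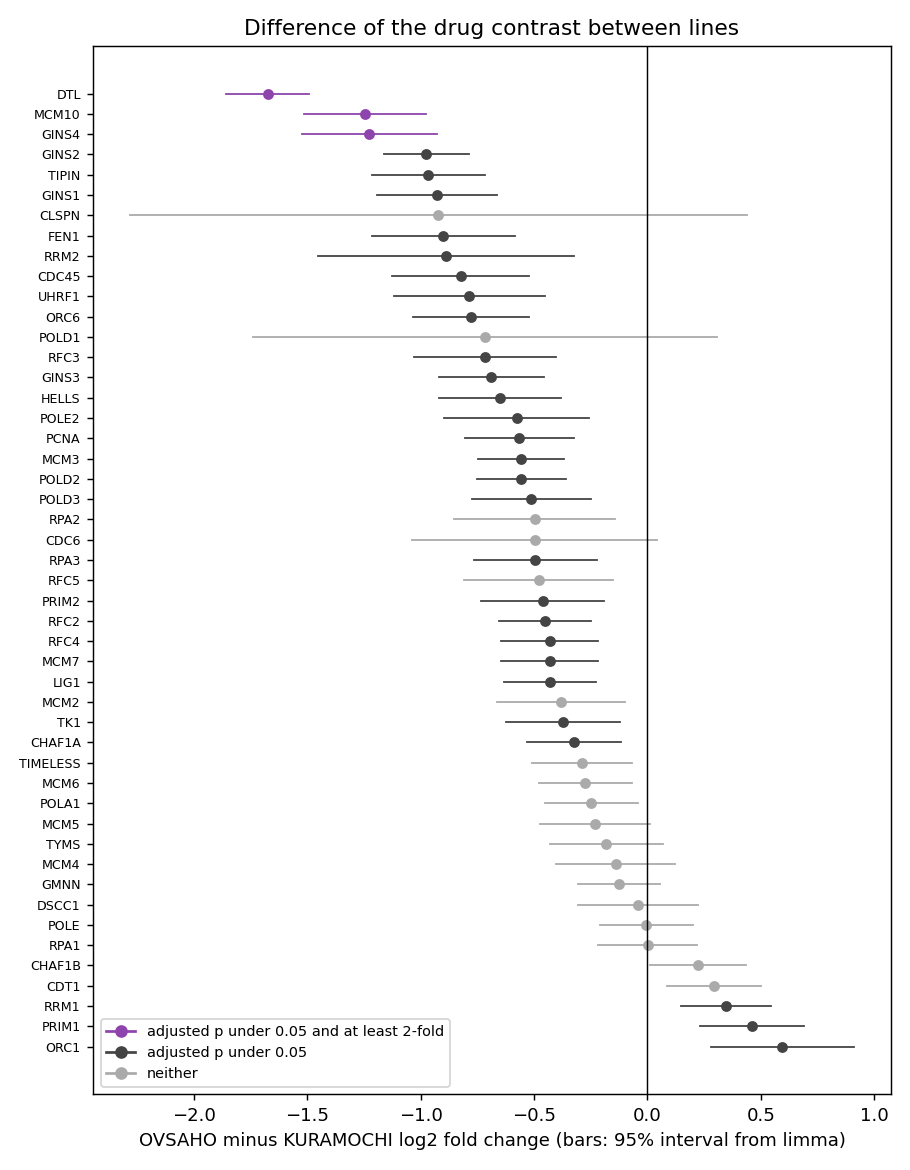
Difference between the lines in the log2 fold change of simvastatin against L-778123, OVSAHO minus KURAMOCHI, for 48 genes ordered by value; bars are 95% intervals from limma and colors give the test. DTL, MCM10 and GINS4 were called, 42 genes lie below 0, and ORC1, PRIM1 and RRM1 lie above 0 at an adjusted p under 0.05.

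The lines also differed in level over both drugs. OVSAHO was lower for 5 of the 48 genes and higher for 4, where 16.4% of all genes were called lower and 18.3% higher, so that these shares were no larger than the background. The lower ones were RFC3 (-2.21 on the log2 scale), UHRF1 (-1.45), CLSPN (-1.44), DTL (-1.43) and LIG1 (-1.33), and the higher ones PRIM1 (2.38), ORC1 (1.20), MCM3 (1.13) and TIMELESS (1.05).

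Partners of these genes from other lists are set beside them here. In the origin recognition complex, ORC2, ORC3, ORC4 and ORC5 changed by -0.42 to -0.20 on the log2 scale in OVSAHO, beside -1.07 for ORC1 and -1.67 for ORC6. ORC3, ORC4 and ORC5 passed the adjusted p there (0.012, 0.033 and 0.0014, limma), and ORC2 did not (0.124). RFC1, the large subunit of the clamp loader, changed by -0.28 (adjusted p = 0.0126, limma), beside -1.06 to -1.66 for RFC2 to RFC5. POLD4, the smallest subunit of polymerase delta, rose by 0.92 in OVSAHO (adjusted p = 0.00153, limma), under 2-fold, while the other subunits fell. POLE3 and POLE4, the histone-fold subunits of polymerase epsilon, changed by -0.78 and -0.42 (adjusted p = 0.000267 and 0.0048, limma).

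RRM2B, the alternative partner of RRM1 that works outside S phase, changed by 0.16 in OVSAHO and 0.28 in KURAMOCHI. Both of these small rises passed the adjusted p (0.0494 and 0.0129, limma), beside -2.65 and -1.76 for RRM2. CDC7, the kinase that triggers origin firing, fell by 1.78 in OVSAHO and 0.84 in KURAMOCHI, and its activator DBF4 changed by -0.41 and -0.23. MCM8, a relative of the ring proteins with a part in recombination, fell by 1.56 in OVSAHO and 0.73 in KURAMOCHI, and MCM9, its partner, changed by -0.10 and 0.04.

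**Figure D4:**
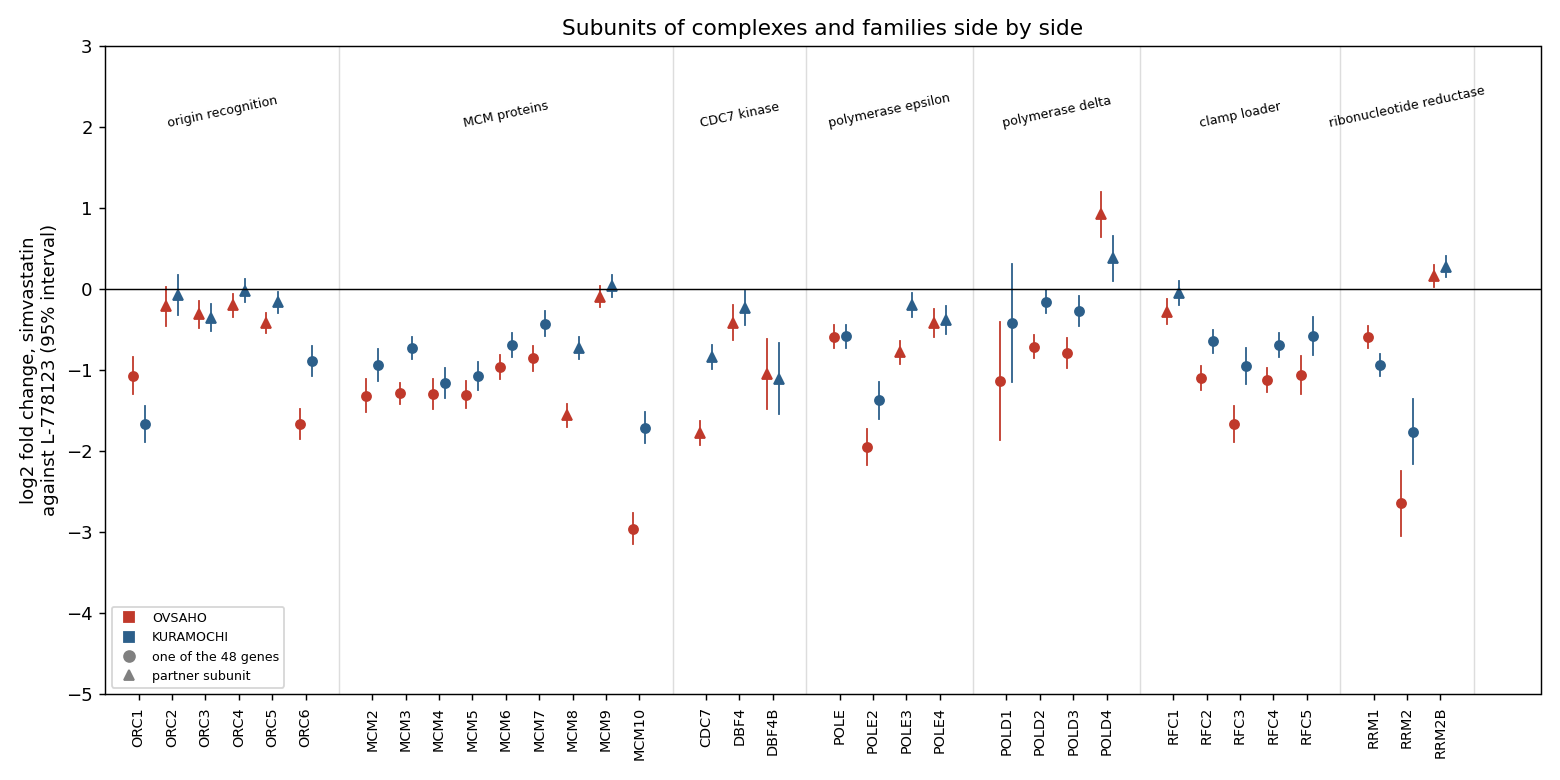
Log2 fold change, simvastatin against L-778123, of the subunits of 7 complexes and families in OVSAHO (red) and KURAMOCHI (blue), with 95% intervals from limma; circles are among the 48 genes and triangles are partners from other lists. ORC2 to ORC5, MCM9, RFC1 and RRM2B lie closer to 0 than the circles of their groups, POLD4 lies above 0, and ORC1, ORC6, MCM10, POLE2 and RRM2 lie lowest in their groups.

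Over whole lists, 9 of 14 origin firing kinases and factors were called lower in OVSAHO and 4 in KURAMOCHI, with 0 called higher. The largest changes in OVSAHO were those of CDC25A (-2.12), a phosphatase that activates cyclin-dependent kinases, the cyclin CCNE2 (-2.07) and TICRR (-1.93), which brings firing factors to the helicase. RECQL4, a helicase needed for firing, fell by 1.12. Of 29 other replisome and chromatin genes, 7 were called lower in OVSAHO and 3 in KURAMOCHI, led by ESCO2 (-2.68), which ties sister chromatids together, ASF1B (-2.09), a histone chaperone, and ATAD5 (-1.81), which unloads PCNA. Their median in OVSAHO was -0.43, beside -1.28 for the 48 genes.

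The remaining enzymes of nucleotide supply had smaller median changes than the 48 genes. Of 17 deoxynucleotide and folate enzymes, 2 were called lower in OVSAHO and 0 in KURAMOCHI, and none were called higher. Of all genes, 5.89% and 2.95% were called lower in these lines. The medians of this list were -0.11 and -0.15. By the adjusted p alone 11 of the 17 passed in OVSAHO, 7 lower and 4 higher, as did 9145 of all 16955 genes in either direction. In OVSAHO, SHMT1, a folate enzyme, fell by 1.16 and NUDT1, which clears oxidized nucleotides, by 1.11. DUT, which removes deoxyuridine triphosphate, changed by 0.13 in OVSAHO and -0.15 in KURAMOCHI, neither past the test. SAMHD1, which degrades deoxynucleotides, rose by 0.94 in OVSAHO (adjusted p = 0.000679, limma), under 2-fold, and changed by 0.26 in KURAMOCHI. Of 15 enzymes of purine and pyrimidine synthesis, CTPS1 (-1.06 in OVSAHO) was the only one called in either line. The medians of that list were -0.215 in OVSAHO and -0.265 in KURAMOCHI. By the adjusted p alone 9 of the 15 passed in OVSAHO, 7 lower and 2 higher.

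Few genes of mitochondrial DNA replication or of repair were called, as were few of all genes (5.89% lower and 5.69% higher in OVSAHO). In KURAMOCHI these shares of all genes were 2.95% and 2.44%. Of 11 genes of mitochondrial DNA replication 0 were called in either line, with medians of -0.05 and 0.09. By the adjusted p alone 6 of the 11 passed in OVSAHO, 4 lower and 2 higher, and the list ranged from -0.64 to 0.56 there. Of all 16955 genes, 9145 passed the adjusted p alone in OVSAHO, in either direction. POLG, the mitochondrial polymerase, changed by 0.28 and -0.19, and TK2, the mitochondrial thymidine kinase, by -0.14 and 0.29, beside -1.76 and -1.39 for TK1. Of 14 repair and translesion polymerases and ligases, POLQ, which joins broken ends, was called in both lines (-2.21 and -1.40), and POLB, the polymerase of base excision repair, changed by 0.19 and -0.01. By the adjusted p alone, 6 of the 14 passed in OVSAHO, 4 lower and 2 higher.

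**Figure D5:**
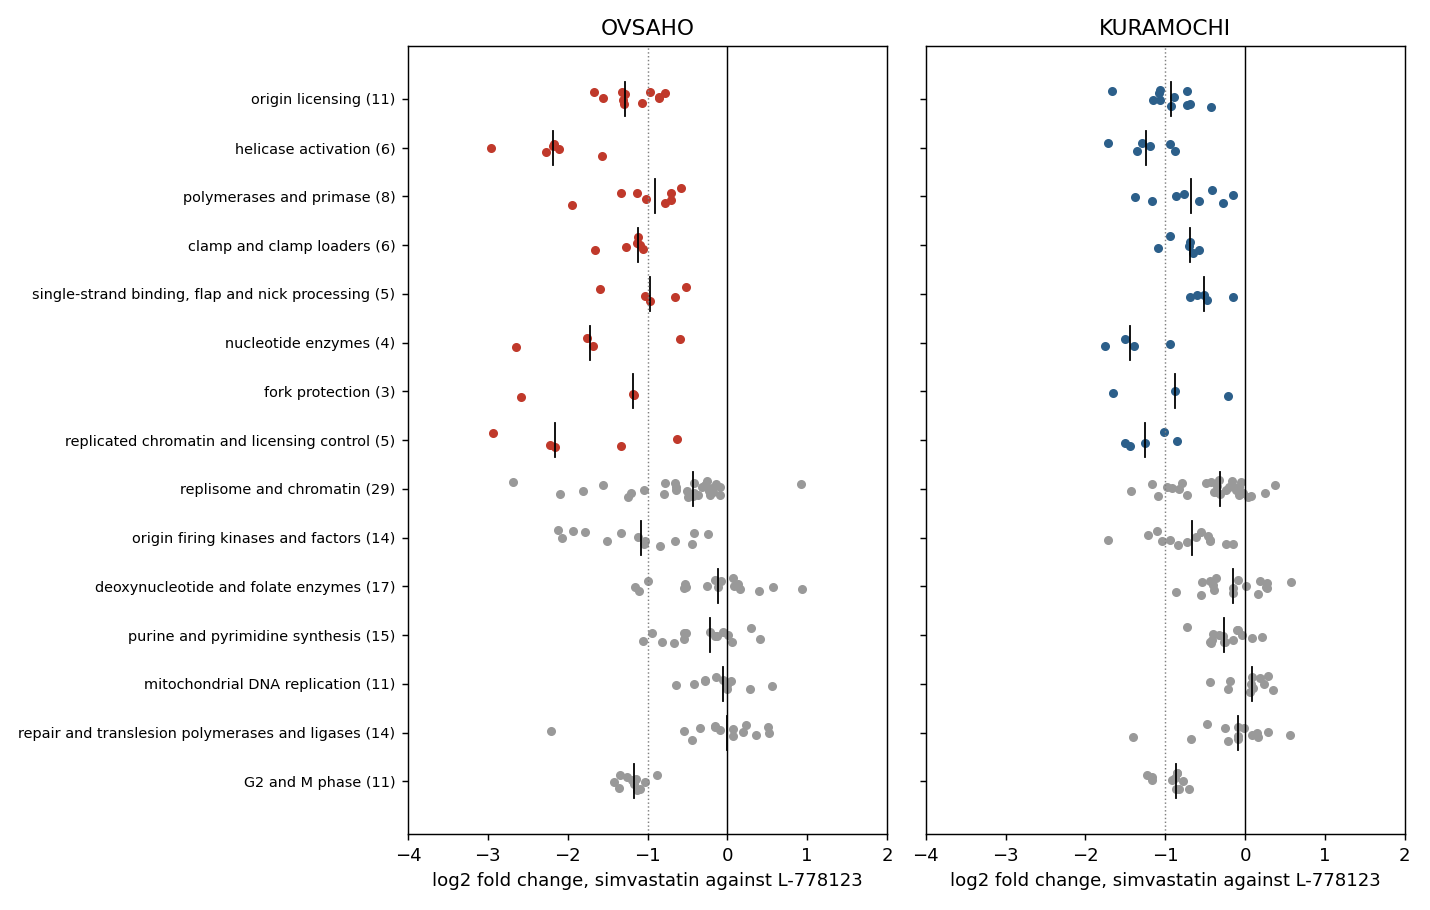
Log2 fold change, simvastatin against L-778123, of each gene in the 8 roles (colored) and in 7 other lists (grey), with the number of genes measured in brackets; black bars are medians and the dotted line marks 2-fold. The medians of mitochondrial replication and of repair polymerases lie near 0 in both lines, while those of the 8 roles lie between -2.18 and -0.90 in OVSAHO.

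Markers of G2 and M phase moved in the same direction. Of 11 measured, 10 were called lower in OVSAHO and 3 in KURAMOCHI, with medians of -1.17 and -0.87, and their median difference between lines was -0.26, beside -0.49 for the 48 genes. Their part in the result was not tested. MKI67, a marker of cycling cells, fell alike in the lines, by 1.15 and 1.16, and CDK1, the kinase that drives mitosis, by 1.42 and 1.17.

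All 12 markers of serous carcinoma were measured on all 8 arrays, among them PAX8 and WT1. With simvastatin, 2 of the 12 were called higher in OVSAHO (5.69% of all genes) and 0 lower. In KURAMOCHI 1 was called lower and 1 higher (2.95% and 2.44% of all genes). Over both drugs, 5 of the 12 were called higher in OVSAHO than in KURAMOCHI (18.3% of all genes) and 0 lower. Of the 17 markers of fibroblasts, leukocytes and endothelium, 9 had a probe that was read. COL1A1 and COL3A1, collagens of fibroblasts, were not well above background in OVSAHO. None of the fibroblast or leukocyte markers was called between the drugs in either line. In OVSAHO against KURAMOCHI over both drugs, the 2 fibroblast markers were called lower (-8.029 and -4.025), as were 16.4% of all genes. Of the 3 leukocyte markers, 1 was called lower (-1.07) and 1 higher (1.77) between the lines. Of the 4 endothelial genes read, 1 was called lower with simvastatin in OVSAHO, VWF (-3.30), and 1 was called higher, in a range up to 3.16. TEK was not well above background on the OVSAHO arrays with L-778123. Between the lines, 3 of the 4 were called lower in OVSAHO. Their part in the result was not tested. Replicate arrays had a Pearson r of 0.9949 to 0.9958 over probes, which are not independent replicates. All arrays lay on a single slide with each group at its own positions, so position and group cannot be told apart.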

How the data were processed

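Intensities were deposited by the authors as one-color scanner output of Agilent Feature Extraction 11.5.1.1 on SurePrint G3 arrays, already background-subtracted, and as a table of normalized intensities. Per the methods, signals were scaled to the 75th percentile and tested by a two-way analysis of variance with a 2-fold threshold. The authors' table nevertheless gave nearly the same medians over all genes as quantile normalization here (0.013 in OVSAHO and 0.026 in KURAMOCHI with either), so these 2 alternatives are not independent. Here log2 intensities were averaged over the spots of a probe after outlier spots were left out, and the 75th percentile of each array was subtracted (324 to 437 in linear intensity). A probe was kept (33753 of 58162) where the 2 arrays of any group both measured it well above background. Identifiers were matched to RefSeq gene names (24782 of 50096). One mean per group was fitted to all 8 arrays with limma 3.58.1 in R 4.3.3, and p-values were adjusted by Benjamini-Hochberg over all kept probes. Calls were made at 2-fold or more with an adjusted p under 0.05. The number of arrays limits the precision. The members, the lists and the rule for naming genes were chosen with earlier results of these data known. That rule names every member, gives array values for the largest change in each role and line, called differences between lines, exceptions in sign and many of the members called in 1 line or neither (up to 30 a comparison), and takes from other lists the 3 largest calls and named partners. One gene of the other lists is not reported here. The fit was tested on simulated data. Alternatives were other filters, normexp, quantile normalization, a percentile over bright probes, the authors' table, the arrays of 1 line alone, the methods' analysis of variance, a block for replicate number, other fold thresholds, the median over probes and leaving out each array.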

Additional observations from a re-analysis of the deposited data

Results flagged for a closer look

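For 3 of the 48 genes the drug contrast differed between OVSAHO and KURAMOCHI, at an adjusted p under 0.05 from limma and at least 2-fold. Of all genes, 3.30% were called lower and 4.29% higher in that test. By the adjusted p alone, 27 of the 48 genes had the larger fall in OVSAHO (14.0% of all genes) and 3 in KURAMOCHI (13.5%). The log2 fold change in OVSAHO minus that in KURAMOCHI was -1.68 for DTL, -1.25 for MCM10 and -1.23 for GINS4. In each of these 3 genes the fall was larger in OVSAHO. For GINS4 the lines lay apart with both drugs. Its mean level in OVSAHO and KURAMOCHI was 3.42 and 2.78 with L-778123, and 1.25 and 1.83 with simvastatin. After normexp background correction the MCM10 value was -0.78, under 2-fold.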

How the results depend on the processing

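Genes called lower in OVSAHO numbered 31 to 48 under all alternatives, 33 to 35 with an array left out. In KURAMOCHI they numbered 17 to 20 with an array left out, 16 after normexp, 38 at 1.5-fold and 44 with no fold threshold. The OVSAHO median was -1.18 after normexp. Genes called with the larger fall in OVSAHO numbered 3 to 5 with an array left out (5 without OVSAHO L-778123 replicate 2), 14 at 1.5-fold and 27 with no fold threshold, and those with the larger fall in KURAMOCHI 1 and 3. Genes lower in OVSAHO over both drugs numbered 11 and 23, and those higher 16 with no fold threshold. After normexp MCM10 no longer passed 2-fold between lines (-0.78). Samples shared only a number (correlations of 0.001 to 0.056 between groups), and with the replicate number as a block the counts were 35, 20 and 3. Signs turned for values that were not called, most of them near 0; as reported, the difference was -0.50 for CDC6 and -0.92 for CLSPN, the KURAMOCHI change of POLD1 was -0.42, and the level of MCM7 differed by 0.23, under 2-fold. For the difference between lines they were CDC6 (0.068), RPA1 (-0.003) and CLSPN (0.18) after normexp, RPA1 after quantile normalization (-0.019) and in the authors' table (-0.022), and POLE (0.004 after quantile normalization, over bright probes and for the median over probes, 0.003 in the authors' table). For the level over both drugs they were TYMS after normexp (0.006) and MCM7 after quantile normalization (-0.031) and in the authors' table (-0.036). With an array left out, the difference ran from -0.11 to 0.025 for DSCC1, -0.041 to 0.031 for POLE and -0.05 to 0.051 for RPA1, the level from -0.012 to 0.072 for GINS4 and -0.045 to 0.031 for TYMS, and the KURAMOCHI change of POLD1 from -0.903 to 0.064. The cause was not tested. Dim signals limit CDC6 and CLSPN, whose calls were lost after normexp.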
